A study of Mus musculus with 6 samples.

Results

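The SIBLING genes (small integrin-binding ligand, N-linked glycoproteins) encode secreted, acidic phosphoproteins of mineralized tissue. The family was taken as its 5 known members, Spp1, Ibsp, Dmp1, Mepe and Dspp, and all 5 were found by symbol among the 22824 rows of each expression file. The RNA came from C57BL/6 mouse femurs and was sequenced as 2 groups of 3 libraries. The OE group was made by crossing 9.6kb DMP1-Cre with R26-Wnt7b mice, so that Cre, driven by regulatory sequence of the SIBLING gene Dmp1, switched on a Wnt7b allele at the R26 locus. Dmp1 regulatory sequence of this kind is active mainly in osteocytes and mature osteoblasts. The OE mice are described as homozygotes, and the Ctrl group held R26-Wnt7b littermates named without the Cre, so both groups carry the Wnt7b allele. The femurs are described as cleared of cartilage and marrow, and the sources used here give neither age nor sex. Nothing in the labels ties a library to a separate animal, so the p-values refer to the spread among the 6 libraries, part of which may be technical.

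SIBLING proteins share an Arg-Gly-Asp site that binds integrins, and they are heavily phosphorylated after translation, mainly by the secretory pathway kinase encoded by Fam20c. Their acidic stretches bind calcium and the surface of hydroxyapatite, and depending on the protein, its cleavage and its phosphorylation they start, limit or stop crystal growth. Osteoblasts make osteopontin (Spp1) and bone sialoprotein (Ibsp), osteocytes are the main source of Dmp1 and Mepe in bone, and Dspp is the main non-collagen matrix gene of dentin.

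All 5 genes lie in the same orientation within 270.3 kb of chromosome 5 (GRCm38, 104170712 to 104441050, plus strand), and GENCODE places no other protein-coding gene between them. Their order along the chromosome is Dspp (ENSMUSG00000053268), Dmp1 (ENSMUSG00000029307), Ibsp (ENSMUSG00000029306), Mepe (ENSMUSG00000053863) and Spp1 (ENSMUSG00000029304). Dspp spans 104170712 to 104180127 and has 5 exons, and Dmp1 spans 104202613 to 104214102 with 6. Ibsp spans 104299171 to 104311469 with 7 exons, Mepe 104325329 to 104338611 with 3, and Spp1 104435118 to 104441050 with 8, counted in the transcript with the longest coding sequence. GENCODE lists 7 transcripts for Spp1 and 1 for each of the others.

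The sequence before the starts of the members is shown as a description, and its part in their levels was not tested. RefSeq promoter windows (GRCm38.p6) matched 4 of the 5 members, and the 250 bases before the start nearest to the GENCODE start are printed 5′ to 3′ on the plus strand. The windows are chr5:104434861-104435110 for Spp1, chr5:104299037-104299286 for Ibsp, chr5:104202367-104202616 for Dmp1 and chr5:104325079-104325328 for Mepe. The RefSeq start of Ibsp lies 116 bases after the GENCODE start, and those of the other 3 lie within 7 bases of it. Capitals mark matches to 4 motifs on either strand. The first is the CCAAT box, which reads ATTGG on the opposite strand. The next is the TATA box written TATAAA, which reads TTTATA on the opposite strand. A variant of it, TTTAAA, reads the same on both strands. The last is the core bound by RUNX factors, ACCACA, which reads TGTGGT on the opposite strand. The marked matches do not overlap each other.
Spp1: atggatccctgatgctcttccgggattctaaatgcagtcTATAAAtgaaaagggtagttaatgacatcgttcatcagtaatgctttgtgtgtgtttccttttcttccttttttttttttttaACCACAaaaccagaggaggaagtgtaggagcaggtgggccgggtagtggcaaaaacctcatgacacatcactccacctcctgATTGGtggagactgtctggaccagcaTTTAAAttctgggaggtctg
Ibsp: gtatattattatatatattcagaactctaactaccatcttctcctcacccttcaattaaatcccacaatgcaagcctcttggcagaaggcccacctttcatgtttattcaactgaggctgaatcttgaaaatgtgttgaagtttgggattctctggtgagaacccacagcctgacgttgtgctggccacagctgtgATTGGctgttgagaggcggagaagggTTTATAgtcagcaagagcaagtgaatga
Dmp1: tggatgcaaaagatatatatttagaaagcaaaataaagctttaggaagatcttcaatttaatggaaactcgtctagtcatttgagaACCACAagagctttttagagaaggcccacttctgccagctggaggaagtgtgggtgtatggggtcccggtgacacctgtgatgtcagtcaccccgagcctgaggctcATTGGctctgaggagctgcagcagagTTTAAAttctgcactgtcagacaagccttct
Mepe: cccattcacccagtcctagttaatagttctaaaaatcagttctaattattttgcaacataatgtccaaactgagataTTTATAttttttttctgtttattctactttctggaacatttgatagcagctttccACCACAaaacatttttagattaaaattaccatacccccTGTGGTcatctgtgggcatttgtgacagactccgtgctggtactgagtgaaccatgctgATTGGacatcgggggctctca
Every window holds the CCAAT box on the minus strand, with its first printed base 46 bases before the start in Spp1, 54 in Ibsp, 57 in Dmp1 and 21 in Mepe. A T-rich box follows it closely in 3 windows. It is TTTAAA with its first base 20 bases before the start in Spp1 and 31 bases before it in Dmp1. In Ibsp it is the minus-strand TATA box, 28 bases before the start, and in Mepe that box lies farther out, 173 bases before the start. The RUNX core was found in Spp1, Dmp1 and Mepe, and Mepe also holds it on the opposite strand. Of 32851 RefSeq windows of the same length, 33.8% hold the CCAAT box on either strand, 12.4% the TATA box, 12.1% its variant and 14.0% the RUNX core. Read as in these 4 windows, the CCAAT box is in 19.7% of all windows. Together with the variant or the minus-strand TATA box it is in 3.28%. That last share takes no account of order or distance, so the close spacing has no background beside it. These motifs were chosen after the sequences were seen, and a match is a description of the letters, not a measured binding site.

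Levels are in FPKM, which divides fragments by transcript length and by the mapped fragments of the library, so genes of different length can be compared. Absolute depth is unknown; relative depth, read from the spacing of low values, ran from 1 to 1.18. The targeted gene itself, Wnt7b, had 2.49, 0.661 and 0.295 FPKM across OE 1 to OE 3. The library labelled Ctrl 1 held 0.909 FPKM of it, Ctrl 2 held 0.00833, and Ctrl 3 lists it at 0. The library labelled Ctrl 1 therefore lay inside the OE range for the targeted gene, above OE 2 and OE 3. These values are low, with OE 1 alone above 1 FPKM. The comparisons of the members are given with the library labelled Ctrl 1 and without it. That library was the highest Ctrl library for Spp1, Ibsp, Dmp1 and Mepe, so leaving it out widens their differences by construction. Neutrophil and cartilage markers were present in all 6 libraries although the labels describe their removal, with S100a8 between 23601 and 70049 FPKM and Col2a1, the main cartilage collagen, between 8.82 and 263. An exact 0 can be a failed estimate, since Col1a1, a main gene of bone matrix, has a value of 0 for OE 1 and the library labelled Ctrl 1, while Bglap had 2711 and 2552 FPKM there.

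With all 6 libraries, no gene of 12177 tested passed an adjusted p of 0.05 by limma (0% called in either direction). Unadjusted p-values under 0.05 numbered 502 with OE higher and 497 with OE lower, a split that was 646 against 391 after scaling without marrow and muscle list genes. The lowest OE library exceeded the highest Ctrl library for 4.59% of genes, the reverse held for 8.97%, and 43.7% of genes had a difference above 0 (41.0% without the library labelled Ctrl 1). Without the library labelled Ctrl 1, limma called 525 genes higher in OE, or 4.37% of 12017 tested, and 80 lower (0.666%). The SIBLING genes are read against these shares. Of the 5 members, 4 passed the filter of 1 FPKM in at least 3 libraries, and they did so with at least 14.6 FPKM in every library of both groups.

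**Figure D1:**
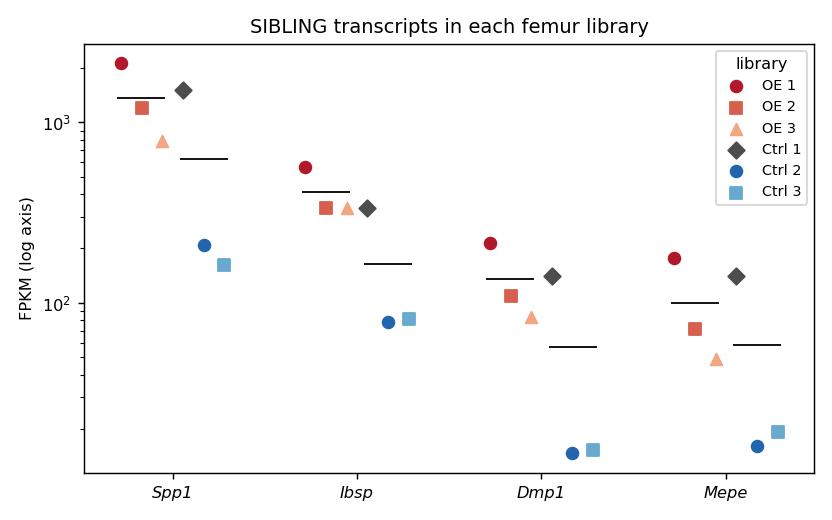
FPKM of Spp1, Ibsp, Dmp1 and Mepe (log axis) in each of the 6 libraries, with horizontal lines at the mean of the 3 OE and the 3 Ctrl libraries. Ctrl 2 and Ctrl 3 sit lowest for all 4 genes, while the library labelled Ctrl 1 sits at 1505, 334, 141 and 140.3 FPKM, among or just below the OE libraries; Dspp, at most 0.00594 FPKM, is not drawn.

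Spp1 encodes osteopontin, a phosphoprotein of osteoblasts, osteoclasts and macrophages that anchors cells through integrins and limits crystal growth. It was the most abundant member in every library. Spp1 reached 2119, 1197 and 787 FPKM across OE 1 to OE 3, against 1505 for the library labelled Ctrl 1, with 209 and 162 for the Ctrl libraries 2 and 3. Its rank among the 21172 genes with a symbol was 22 in OE 1 and 449 in Ctrl 3. The groups overlapped, because the library labelled Ctrl 1 lay above OE 2 and OE 3. Spp1 averaged 1367 ± 682 FPKM for OE against 625 ± 761.9 for Ctrl (SD, n = 3 each). The difference in log2(FPKM + 1) was 1.76 (SE 0.85), which did not pass limma (adjusted p = 0.558) or an exact two-sided permutation test (p = 0.3, the smallest p possible with 3 against 3 being 0.1). Without the library labelled Ctrl 1 the difference was 2.77 (SE 0.44, limma adjusted p = 0.0230), and the OE mean was 7.36-fold the mean of Ctrl 2 and Ctrl 3.

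Ibsp encodes bone sialoprotein, which can start hydroxyapatite formation and marks osteoblasts that are laying down matrix. Ibsp stood at 563, 335.8 and 335.7 FPKM across OE 1 to OE 3, against 333.9 for the library labelled Ctrl 1, 77.8 for Ctrl 2 and 80.9 for Ctrl 3. It was the 1 member of the 4 tested whose groups did not overlap, against 4.59% of all genes tested. That separation was narrow: OE 2, OE 3 and the library labelled Ctrl 1 were nearly equal, and the groups overlapped once the libraries were scaled without marrow and muscle list genes. The means were 411 ± 131 FPKM for OE against 164 ± 147 for Ctrl (SD, n = 3 each). The log2 difference of 1.63 (SE 0.58) had a limma adjusted p of 0.554 and an exact permutation p of 0.1, the smallest this design allows. Without a replicate block, Ibsp was also the 1 member whose unadjusted limma p was under 0.05, a level that 4.12% of genes reached with OE higher. Leaving out the library labelled Ctrl 1 gave a difference of 2.32 (SE 0.29, limma adjusted p = 0.0111) and a 5.18-fold ratio of means.

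Dmp1 encodes dentin matrix protein 1, which is cleaved into fragments that bind mineral, and whose loss causes rickets with high FGF23. Its regulatory sequence also drove Cre in the OE mice. Dmp1 stood at 215, 109 and 83.8 FPKM across OE 1 to OE 3, against 141 for the library labelled Ctrl 1, with 14.6 and 15.2 for the Ctrl libraries 2 and 3. The order of libraries matched that of Spp1 except between Ctrl 2 and Ctrl 3. OE averaged 136 ± 69.8 FPKM and Ctrl 56.9 ± 72.8 (SD, n = 3 each). The log2 difference, the largest of the 4 members tested, was 1.94 (SE 0.87, limma adjusted p = 0.554, exact permutation p = 0.3). Without the library labelled Ctrl 1 it was 2.99 (SE 0.39, limma adjusted p = 0.0123), a 9.13-fold ratio of means.

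Mepe encodes matrix extracellular phosphoglycoprotein, an osteocyte product whose acidic carboxy-terminal peptide inhibits mineralization when released and is bound and degraded by PHEX. Mepe stood at 177, 71.8 and 48.6 FPKM across OE 1 to OE 3, against 140.3 for the library labelled Ctrl 1, 16.1 for Ctrl 2 and 19.1 for Ctrl 3. The library labelled Ctrl 1 was close to OE 1 and above OE 2 and OE 3. The means were 99.2 ± 68.5 FPKM for OE against 58.5 ± 70.9 for Ctrl (SD, n = 3 each), and the log2 difference of 1.24 (SE 0.87) was the smallest of the 4 (limma adjusted p = 0.605, exact permutation p = 0.3). Without the library labelled Ctrl 1 the difference was 2.22 (SE 0.51), and Mepe was then the 1 member of the 4 that missed the threshold (limma adjusted p = 0.0705). In that comparison 3 of 4 members were called higher, where 4.37% of all genes were, and 4 of 4 lay above Ctrl 2 and Ctrl 3 in every OE library, as did 17.7% of all genes. The 4 members share these libraries and are not independent of each other.

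Dspp encodes the precursor of dentin sialoprotein and dentin phosphoprotein and is made mainly by odontoblasts. Dspp had 0.00594 FPKM for OE 1 and 0.00566 for OE 3, and the other 4 libraries list it at 0. The ratio of the values above 0 was 1.05, and that of what 1 fragment is worth in these libraries is also 1.05, as the same number of fragments in each would give. Dspp was at the edge of detection at this depth, and no fold is given.

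Libraries of the OE group differed among themselves by as much as, or more than, the means of the groups did for Spp1, Dmp1 and Mepe. OE 1 was highest and OE 3 lowest for each of the 4 genes, and the ratio of OE 1 to OE 3 was 2.69 for Spp1, 1.68 for Ibsp, 2.57 for Dmp1 and 3.65 for Mepe. The ratios of the OE to the Ctrl mean were 2.19, 2.51, 2.39 and 1.70 in the same order, and Ibsp is the 1 gene of the 4 for which the groups differed more than OE 1 and OE 3 did. Across all 6 libraries the ratio of the highest to the lowest value was 13.1 for Spp1, 7.23 for Ibsp, 14.7 for Dmp1 and 11.0 for Mepe.

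The order of the levels, per kilobase, was Spp1 above Ibsp above Dmp1 and Mepe in all 6 libraries. Spp1 made up 58.5% to 71.0% of the family's FPKM and Ibsp 15.8% to 29.2%. Dmp1 and Mepe exchanged places: Dmp1 was above Mepe in all 3 OE libraries, level with it in the library labelled Ctrl 1, and below it in Ctrl 2 and Ctrl 3. The whole family summed to 3074, 1714 and 1255 FPKM across OE 1 to OE 3, against 2120.0 for the library labelled Ctrl 1, with 318 and 277 for the Ctrl libraries 2 and 3. As a share of all FPKM this was 0.500%, 0.221% and 0.210% across OE 1 to OE 3, against 0.289% for the library labelled Ctrl 1, with 0.0416% and 0.0447% for the Ctrl libraries 2 and 3.

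**Figure D2:**
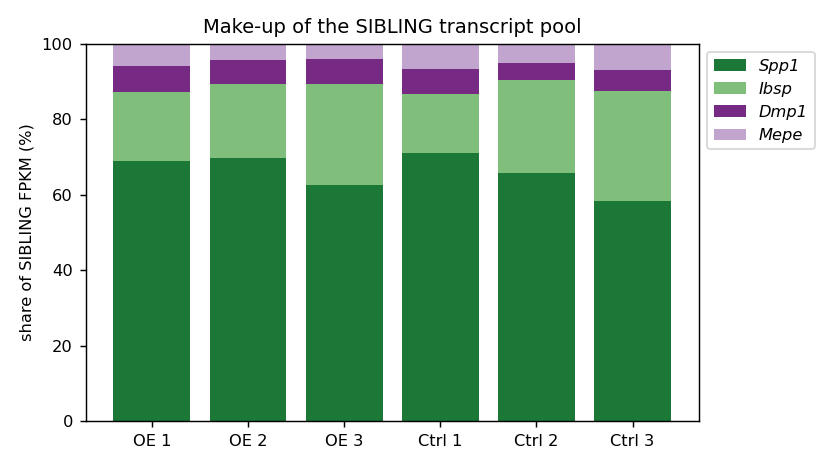
Share of the summed SIBLING FPKM (percent) taken by Spp1, Ibsp, Dmp1 and Mepe in each library, as stacked bars from 0 to 100. Spp1 takes 58.5% to 71.0% in every library, and the Ibsp share is largest in Ctrl 3 at 29.2%; Dspp is too small to be drawn.

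Ratios of FPKM between members within a library do not depend on how that library was scaled, so they ask whether the family differed in proportion. For the 4 members tested, 6 pairs were compared on the log2 scale of (FPKM + 1), with exact two-sided permutation tests adjusted over the 6 pairs. The added 1 FPKM leaves the tested ratios slightly dependent on scale. With 0.1 in its place all 6 differences kept their direction, and Spp1 over Dmp1 went from -0.18 to -0.22. Dmp1 over Mepe was the 1 pair whose groups did not overlap. In FPKM it stood at 1.22, 1.52 and 1.72 across OE 1 to OE 3, against 1.005 for the library labelled Ctrl 1, 0.910 for Ctrl 2 and 0.794 for Ctrl 3. The library labelled Ctrl 1 fell on the Ctrl side for this ratio, although its level of each gene was within or just below the OE range. The mean log2 ratio was 0.55 ± 0.25 in OE and -0.14 ± 0.16 in Ctrl (SD, n = 3 each), a difference of 0.70 with an exact permutation p of 0.1, which is the smallest possible, and an adjusted p of 0.6. It was 0.77 without the library labelled Ctrl 1.

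The other 5 pairs overlapped between groups and had exact permutation p-values from 0.2 to 0.9. Spp1 over Mepe differed most among them, by 0.52 in log2 (exact permutation p = 0.2), with 12.0, 16.7 and 16.2 across OE 1 to OE 3, against 10.7 for the library labelled Ctrl 1, 13.03 for Ctrl 2 and 8.48 for Ctrl 3. Spp1 over Dmp1 was the steadiest ratio, between 9.39 and 14.3 in all 6 libraries. Spp1 over Ibsp was 3.77, 3.56 and 2.34 across OE 1 to OE 3, against 4.51 for the library labelled Ctrl 1, 2.69 for Ctrl 2 and 2.005 for Ctrl 3, so it split libraries within both groups. With 3 libraries a group, none of these tests could pass after adjustment.

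**Figure D3:**
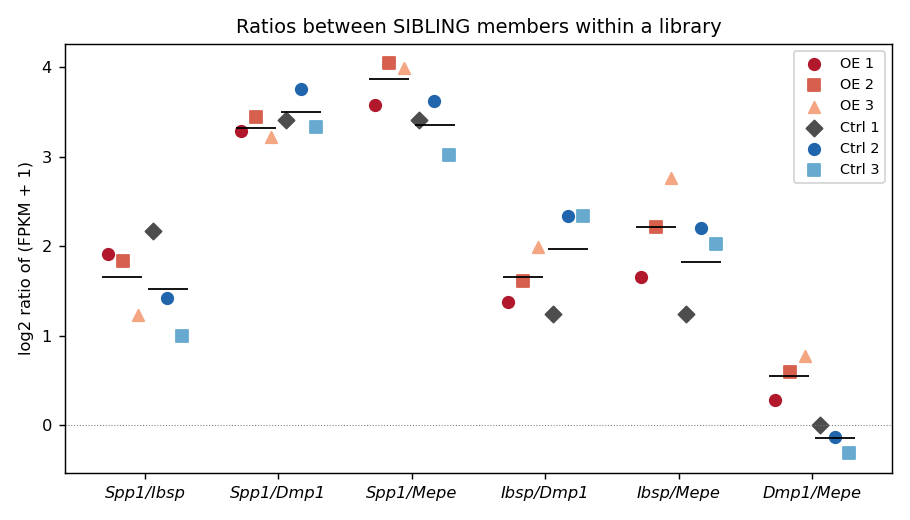
Log2 ratio of (FPKM + 1) for each pair of the 4 expressed SIBLING genes, 1 point per library, with lines at the group means. Dmp1 over Mepe is the pair in which all 3 OE libraries (lowest 0.28) sit above all 3 Ctrl libraries (highest 0.01).

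The cells behind the SIBLING signal were described with marker lists that hold no SIBLING gene. Osteoblast markers, 8 of 10 used because the type I collagen genes have values of 0, summed to 3011 to 4840 FPKM in OE and 121 to 3921 in Ctrl, with none at 0. Osteoclast markers, 9 of 10 used, summed to 1322 to 3755 FPKM in OE and 1022 to 3190 in Ctrl, with none at 0. All 8 osteocyte markers summed to 141 to 372 FPKM in OE and 115 to 239 in Ctrl, with Pdpn at 0 in all 6 libraries. The mean log2(FPKM + 1) of the osteoblast list was 6.68, 6.41 and 5.98 across OE 1 to OE 3, against 6.26 for the library labelled Ctrl 1, with 3.12 and 3.09 for the Ctrl libraries 2 and 3. Ctrl 2 and Ctrl 3 were thus the lowest libraries here as for the SIBLING genes. In bulk RNA, fewer cells of a type and less RNA per cell cannot be told apart.

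Cartilage and skeletal muscle markers had the same low libraries. Cartilage markers, 10 of 10 used, summed to 280.2 to 589 FPKM for OE, to 366 for the library labelled Ctrl 1, and to 17.1 and 22.9 for the Ctrl libraries 2 and 3. Skeletal muscle markers, 9 of 10 used, summed to 1377 to 1787 FPKM for OE, to 1555 for the library labelled Ctrl 1, and to 236 and 343 for the Ctrl libraries 2 and 3. Macrophage markers, 9 of 9 used, summed to 316 to 484 FPKM in OE and 285 to 362 in Ctrl, and neutrophil markers, 10 of 10 used, to 57984 to 161704 in OE and 99946.5 to 137711 in Ctrl. Erythroid markers, 9 of 10 used, were highest in OE 3 at 45392 FPKM, where the SIBLING genes had their lowest OE values, and B cell markers, 9 of 10 used, were highest there too at 511 FPKM. By mean log2(FPKM + 1), the B cell list (2.63 and 2.46) and the endothelium list (3.47 and 3.39) were also lowest in Ctrl 2 and Ctrl 3, with the next lowest libraries at 2.75 and 3.50. Endothelium markers, 8 of 8 used, summed to 100.2 to 144 FPKM for OE and 87.1 to 133 for Ctrl. None of the cartilage, muscle, macrophage, neutrophil, erythroid, B cell or endothelium markers used was at 0. The part of these cells in the SIBLING differences was not tested.

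**Figure D4:**
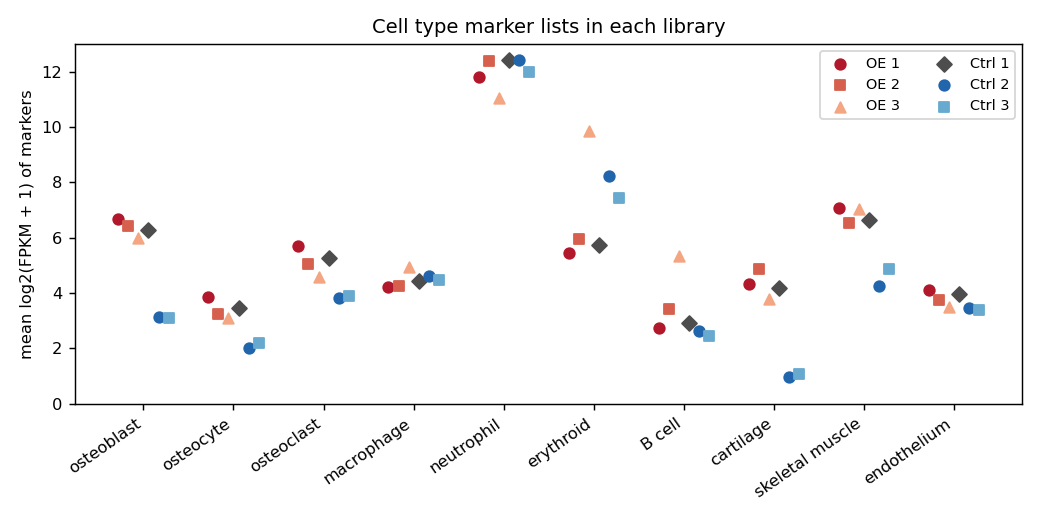
Mean log2(FPKM + 1) of the markers of 10 cell types in each of the 6 libraries. The osteoblast, osteocyte, osteoclast, cartilage, muscle, endothelium and B cell lists are lowest in Ctrl 2 and Ctrl 3, and the erythroid and B cell lists are highest in OE 3.

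Set against the osteoblast markers of the same library, none of the 4 SIBLING genes had a positive difference. Of the 8 markers used, 6 are also in the pathway lists below. The 8 include Bglap and Bglap2, near-identical copies with the largest log2 differences between OE and Ctrl (3.40 and 3.15). The other markers were at 0.54 (Runx2), 1.92 (Ifitm5), 1.92 (Sp7), 1.95 (Omd), 2.07 (Alpl) and 2.64 (Smpd3). The measure was not computed without the copies, so the direction may rest on them. This holds most of all for Dmp1, whose own difference of 1.94 lies among those of the other markers. The level of each gene minus the mean osteoblast level, in log2, gave a difference between OE and Ctrl of -0.44 for Spp1, -0.57 for Ibsp and -0.26 for Dmp1 (exact permutation p = 0.3, 0.3 and 0.4). For Mepe it was -0.96, with 0.79, -0.22 and -0.35 across OE 1 to OE 3, against 0.88 for the library labelled Ctrl 1, 0.97 for Ctrl 2 and 1.24 for Ctrl 3. All OE values of this measure lay below all Ctrl values for Mepe (exact permutation p = 0.1, the smallest possible), and the library labelled Ctrl 1 was on the Ctrl side. Without that library the differences were -0.49, -0.94, -0.26 and -1.03 for Spp1, Ibsp, Dmp1 and Mepe. Against the osteoclast markers the differences were 0.95, 0.82, 1.13 and 0.44 for Spp1, Ibsp, Dmp1 and Mepe, and Ibsp alone did not overlap between groups. Against the osteocyte markers they were 0.93, 0.80, 1.11 and 0.41, again with no overlap for Ibsp alone. The share of all genes without overlap was not computed for these relative measures, so the separations have no background beside them. The direction therefore depends on the marker list chosen as the reference, and the comparison with osteoblast markers was added after the data were seen. The osteocyte and osteoclast lists were mixed. Of their tested markers, 5 and 6 had a positive difference and 2 in each a negative one. Pdpn enters the osteocyte level as 0 in every library, so these references do not stand for a cell type alone.

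Genes on either side of the cluster were measured to see how far along chromosome 5 the pattern reached. Of the 5 protein-coding genes before Dspp and the 5 after Spp1, 6 passed the filter, none was called, and none had groups that did not overlap. Pkd2, which encodes the cation channel polycystin-2 and is the next gene after Spp1, stood at 11.7, 6.34 and 6.01 FPKM across OE 1 to OE 3, against 6.08 for the library labelled Ctrl 1, with 2.69 and 3.42 for the Ctrl libraries 2 and 3. Its log2 difference of 0.83 (SE 0.32) had a limma adjusted p of 0.554, and 1.10 without the library labelled Ctrl 1 had 0.102. Sparcl1, the gene before Dspp and a relative of the gene from which the SIBLING genes are thought to descend, stood at 22.0, 9.24 and 6.41 FPKM across OE 1 to OE 3, against 15.7 for the library labelled Ctrl 1, with 3.55 and 5.25 for the Ctrl libraries 2 and 3. Ctrl 2 and Ctrl 3 were thus the lowest libraries for both adjoining genes. Every OE library lay above Ctrl 2 and Ctrl 3 for 17.7% of all genes, so such a pattern is common outside this locus. Farther out, Nudt9 (log2 difference 0.08), Hsd17b11 (-0.26), BC005561 (0.35) and Abcg3 (0.32) differed by less than Pkd2. Hsd17b13 and Zfp951 were below the filter, Gm17660 was listed at 0 in every library, and Gbp8 was not analysed here.

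**Figure D5:**
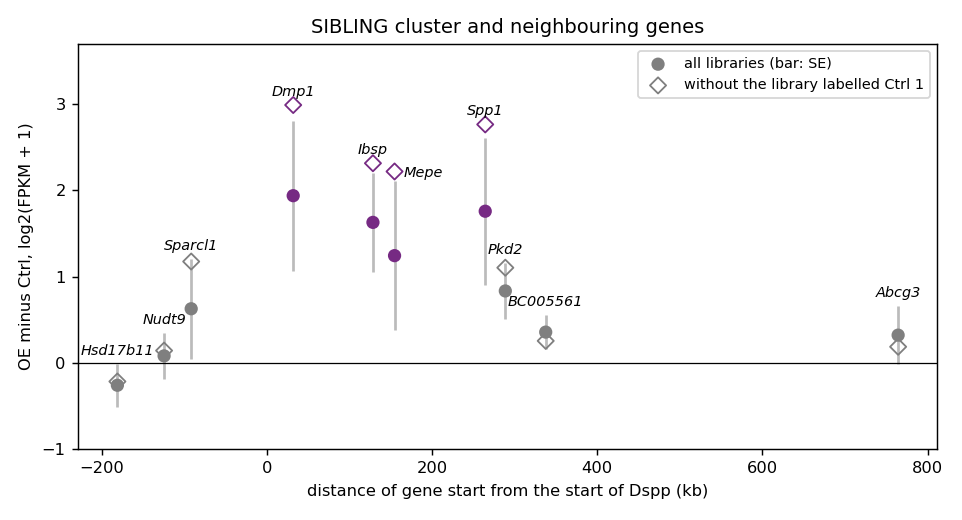
Difference between OE and Ctrl in log2(FPKM + 1) (filled points, bars are the SE) for tested genes in and around the SIBLING cluster, against the distance of the gene start from the start of Dspp in kb; open diamonds leave out the library labelled Ctrl 1. The 4 SIBLING genes lie between 1.24 and 1.94, Pkd2 at 0.83 and Sparcl1 at 0.63, and the remaining 4 neighbours between -0.26 and 0.35.

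Enzymes that modify SIBLING proteins were examined as a list of 17 genes, of which 14 passed the filter. None was called with all 6 libraries, 11 had a positive difference and 3 a negative one, 1 of 14 (Furin, a proprotein convertase) lay lower in every OE library than in any Ctrl library where 8.97% of all genes did, and the median was 0.81 where that of all 12177 genes was -0.04. Fam20c, the kinase of the family, had a small difference: it stood at 22.8, 21.3 and 7.07 FPKM across OE 1 to OE 3, against 24.7 for the library labelled Ctrl 1, with 9.58 and 9.66 for the Ctrl libraries 2 and 3, a log2 difference of 0.19 (SE 0.52). OE 3 was the lowest library for Fam20c, below both Ctrl 2 and Ctrl 3. Phex, the endopeptidase that degrades the acidic peptide of MEPE, stood at 33.5, 21.3 and 16.2 FPKM across OE 1 to OE 3, against 17.8 for the library labelled Ctrl 1, with 1.01 and 1.54 for the Ctrl libraries 2 and 3. Its difference was 2.37 (SE 0.82, limma adjusted p = 0.554), and 3.39 without the library labelled Ctrl 1 (limma adjusted p = 0.00444).

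Bmp1, the protease that cleaves DMP1 and DSPP, stood at 73.2, 38.2 and 35.8 FPKM across OE 1 to OE 3, against 50.5 for the library labelled Ctrl 1, with 6.04 and 6.98 for the Ctrl libraries 2 and 3. Mmp2, the gelatinase reported to pair with bone sialoprotein, differed by 2.08 (SE 0.96), and Mmp13, a collagenase of osteoblasts and hypertrophic cartilage, by 1.33 (SE 0.64). Mmp9, reported to pair with DMP1 and abundant in osteoclasts and neutrophils, differed by -0.11 (SE 0.45) on the log2 scale, while its mean FPKM was 872 ± 417 for OE against 869 ± 239 for Ctrl (SD, n = 3 each). Acp5, the osteoclast phosphatase that removes phosphate from osteopontin, stood at 1217, 771 and 460.3 FPKM across OE 1 to OE 3, against 888 for the library labelled Ctrl 1, with 161 and 143 for the Ctrl libraries 2 and 3. Mmp3, the partner reported for osteopontin, was below the filter, with at most 0.265 FPKM. Without the library labelled Ctrl 1, 6 of the 14 were called higher (4.37% of all genes), with Bmp1 at a limma adjusted p of 0.0103, Mmp2 at 0.00873 and Acp5 at 0.0338.

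Receptors for SIBLING proteins were listed as 11 integrin and CD44 genes, of which 8 were tested. None was called with all 6 libraries, 6 had a positive difference and 2 a negative one, and the median was 0.23. Itgav, the alpha chain of the osteopontin receptor, stood at 35.6, 26.7 and 18.45 FPKM across OE 1 to OE 3, against 18.53 for the library labelled Ctrl 1, with 7.94 and 8.44 for the Ctrl libraries 2 and 3. It differed by 1.19 (SE 0.36, limma adjusted p = 0.554), and without the library labelled Ctrl 1 it was the 1 receptor of 8 called higher (1.56, limma adjusted p = 0.0305), where 4.37% of all genes were. Its partner Itgb3, also abundant in megakaryocytes, stood at 68.1, 64.7 and 153 FPKM across OE 1 to OE 3, against 83.5 for the library labelled Ctrl 1, with 115 and 121 for the Ctrl libraries 2 and 3, with OE 3 highest. Itgb1, a chain shared by many integrins, was the 1 receptor of the 8 with no overlap between groups, with a mean of 101 ± 8.76 FPKM for OE against 71.1 ± 13.8 for Ctrl (SD, n = 3 each), where 4.59% of all genes had OE above Ctrl. Cd44, a receptor of osteopontin found on osteocytes and most leukocytes, had a mean of 106 ± 25.7 FPKM for OE against 108 ± 22.8 for Ctrl (SD, n = 3 each).

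Transcription factors that act on SIBLING promoters or in osteoblasts were listed as 19 genes, 18 of them tested. Of these 16 had a positive difference and 2 a negative one, with a median of 0.73, and none was called with all 6 libraries. Runx2, which binds the RUNX core marked above, stood at 20.5, 10.2 and 11.7 FPKM across OE 1 to OE 3, against 8.87 for the library labelled Ctrl 1, with 7.46 and 10.9 for the Ctrl libraries 2 and 3. Its spread over the libraries was small beside that of the SIBLING genes, with a difference of 0.54 (SE 0.27). Twist1, an inhibitor of RUNX2 function, differed by 1.75 (SE 0.71), and Vdr, the vitamin D receptor, which acts on Spp1, by 1.18 (SE 0.43). Lef1 was the 1 factor of the 18 with OE above Ctrl in every library, where 4.59% of all genes were. It ran from 8.90 FPKM in OE 3 to 0.348 in Ctrl 3. The gap between groups was narrow, with 1.31 FPKM in OE 1 against 1.11 in the library labelled Ctrl 1. The B cell markers were likewise highest in OE 3, and the part of B cells in the Lef1 values was not tested. Without the library labelled Ctrl 1, 8 of 17 factors were called higher, where 4.37% of all genes were, among them Twist1 (limma adjusted p = 0.00303) and Vdr (0.0235), and Runx2 was not (0.484).

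Partners of the SIBLING proteins in mineralization were listed as 12 genes, all tested, with 9 positive and 3 negative differences and a median of 0.79; none was called with all 6 libraries, and 5 of 12 were called higher without the library labelled Ctrl 1, where 4.37% of all genes were. Smpd3, a sphingomyelinase needed for bone mineralization, was the 1 gene of the 12 with no overlap (OE above Ctrl for 4.59% of all genes), at 40.2, 22.9 and 21.9 FPKM across OE 1 to OE 3, against 20.1 for the library labelled Ctrl 1, with 0.979 and 1.23 for the Ctrl libraries 2 and 3. Alpl, the phosphatase that supplies phosphate for mineral and can dephosphorylate osteopontin, differed by 2.07 (SE 0.93), and by 3.21 without the library labelled Ctrl 1 (limma adjusted p = 0.00968). The osteocalcin genes Bglap and Bglap2 differed by 3.40 (SE 1.33) and 3.15 (SE 1.27), and as near-identical copies they may have had reads split between them in a way that is uncertain. Ank, a transporter that exports the mineralization inhibitor pyrophosphate or its source ATP, differed by 0.78 (SE 0.30). Fgf23, the phosphate hormone raised when Dmp1 is lost, stood at 0.852, 1.09 and 11.6 FPKM across OE 1 to OE 3, against 1.23 for the library labelled Ctrl 1, with 4.39 and 5.20 for the Ctrl libraries 2 and 3. Fgf23 was thus lowest in OE 1 and OE 2 and highest in OE 3. Erythroid markers were also highest in OE 3: they summed to 1400.5, 2368 and 45392 FPKM across OE 1 to OE 3, against 1742 for the library labelled Ctrl 1, with 10054 and 5052 for the Ctrl libraries 2 and 3, and the part of erythroid cells was not tested. Of the enamel genes related to the SIBLING family, Ambn had at most 0.212 FPKM, and Amtn, Odam and Amelx are listed at 0 in every library.

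The genes whose pattern over the 6 libraries was most like each member were found by Pearson's r of log2(FPKM + 1), over 11764 tested genes with a symbol and no value of 0. The libraries share a few strong contrasts, with Ctrl 2 and Ctrl 3 low, so r is large for many genes and is given as a description: about 9 in 100 genes reached 0.9 with each of Spp1 (9.01%), Ibsp (9.18%), Dmp1 (9.34%) and Mepe (8.36%). Nearest to Spp1 were C1qtnf6 (r = 0.9993), Slc39a13, Tspan3, Olfml3 and Mxra8. Slc39a13, a zinc transporter needed for connective tissue, stood at 29.6, 19.9 and 15.4 FPKM across OE 1 to OE 3, against 23.5 for the library labelled Ctrl 1, with 6.69 and 5.94 for the Ctrl libraries 2 and 3. Nearest to Ibsp were Matn2, Sdc2, Pard6g, Ano1 and Col24a1, a fibrillar collagen gene of bone, which stood at 9.52, 5.78 and 5.17 FPKM across OE 1 to OE 3, against 5.35 for the library labelled Ctrl 1, with 0.221 and 0.358 for the Ctrl libraries 2 and 3.

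Dmp1 lay nearest to the collagen genes Col5a1 (r = 0.9996), Col6a2 and Col13a1, together with Insc and Gpr153. Mepe lay nearest to Speg, a muscle kinase gene (r = 0.9976), Camk2n1, Dysf, Gas1 and Nsmf. The members were not each other's nearest genes: Dmp1 was 52nd from Spp1, Ibsp 362nd and Mepe 428th, and seen from Mepe, Dmp1 was 236th and Ibsp 704th. Between members r was still high, from 0.932 (Ibsp and Mepe) to 0.995 (Spp1 and Dmp1).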

How the data were processed

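RNA of 6 femur libraries, 3 OE and 3 Ctrl, was deposited by the authors as FPKM values for each gene, per the file headers. TopHat2, Cufflinks and DESeq were used with mm10, per the submitters' processing notes; the sources used here give no roles, settings, strand use or treatment of shared reads. Because FPKM is relative to a library's own fragments, a few abundant genes lower all others.

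Groups and replicate numbers come from the sample titles. Of 22824 rows, 21172 had a symbol by GENCODE M21 (GRCm38, also called mm10). FPKM totals ran from 596413 to 775942. Relative depth came from ratios between libraries of values below 0.1 FPKM.

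log2(FPKM + 1) was fitted in R 4.3.3 by limma 3.58.1, using lmFit and a trended eBayes. The 12177 genes tested reached 1 FPKM or more in 3 or more libraries, with Benjamini-Hochberg adjustment over all of them and a threshold of 0.05. This scale understates changes of low genes. The design named a count test had counts been held. Single values and ratios were compared by exact two-sided permutation tests. The fit was checked on simulated data. Other software was scipy 1.17.1, pandas 2.3.3, numpy 2.4.6, matplotlib 3.10.9 and Python 3.11.15.

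Named genes are the 5 members, Wnt7b, the 4 genes of smallest p in each pathway list, fixed genes whose products act on SIBLING proteins, the 5 neighbours on each side, the 5 genes of most similar pattern, and at most 2 of each cell type list. Furin, Ambn, Amtn, Odam and Amelx were named after their values were seen, and 1 gene that the rule names is not reported here. Members and lists were chosen with earlier results of these data known. Other settings tried were a pseudocount of 0.1, no filter or 5 FPKM, no trend, trimmed-mean scaling, scaling without neutrophil, erythroid, B cell and muscle list genes, a block for the replicate number, and each library left out in turn. Leaving out OE 3 with the library labelled Ctrl 1, and levels relative to osteoblast markers, were added after seeing the data.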

Additional observations from a re-analysis of the deposited data

How the results depend on the processing

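The counts of genes called and the differences of the 4 SIBLING genes tested kept their side of the threshold under another pseudocount, filter, trend or scaling, with 0 genes called. Leaving out 1 library at a time gave between 0 and 605 genes called, and differences of 1.16 to 2.77 for Spp1, 1.27 to 2.32 for Ibsp, 1.40 to 2.99 for Dmp1 and 0.69 to 2.22 for Mepe; the highest value was in each case without the library labelled Ctrl 1. Without that library and OE 3 together, 954 of 11474 genes were called, 623 higher and 331 lower. The differences were then 3.10, 2.44, 3.28 and 2.62 for Spp1, Ibsp, Dmp1 and Mepe (limma adjusted p = 0.00276, 0.00287, 0.00130 and 0.00706). For each of these genes OE 3 was the lowest OE library and the library labelled Ctrl 1 the highest Ctrl library. Leaving out either of them, or both, widens their differences by construction. Relative to osteoblast markers, a list that includes both Bglap and Bglap2, the direction turned, to -0.44, -0.57, -0.26 and -0.96. It was not computed without these copies and may rest on them, most of all for Dmp1 (-0.26). The ratio of Spp1 to Ibsp ran from -0.14 (without Ctrl 3) to 0.45 with 1 library left out, and the other 5 ratios kept their direction. For Dmp1 over Mepe the range was 0.58 to 0.83. The cause of these changes was not tested.

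The replicate numbers are shared between groups, and the labels do not say whether they pair animals. Deviations from the group means correlated at r = 0.442, 0.087 and 0.311 for same-numbered libraries 1, 2 and 3. For libraries of different number r ran from -0.62 to 0.416. OE 2 and OE 3 did not correlate best with their own number. With the replicate number as a block the differences stayed at 1.76, 1.63, 1.94 and 1.24 for Spp1, Ibsp, Dmp1 and Mepe (limma adjusted p = 0.210, 0.191, 0.207 and 0.223), 0 genes were called, and genes at an unadjusted p under 0.05 numbered 1170 higher and 627 lower against 502 and 497 without it. All 4 members were among the 1170 of 12177 genes tested, where 1 of them, Ibsp, was among the 502 (4.12%). The block thus raised the number of genes at this level over all genes, not for the members alone. For the ratios the block gave the same differences, of 0.70 for Dmp1 over Mepe, with exact sign-flip p-values of at least 0.25, the smallest possible. Absolute depth is unknown, so no counting error could be attached to Dspp.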
